A study of Mus musculus with 2 samples.

Results

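The gene set described here holds 9 genes of the phosphoinositide 3-kinase (PI3K) pathway in mouse CD4+ T cells: the catalytic subunit genes Pik3cd and Pik3ca, the regulatory subunit genes Pik3r1 and Pik3r5, the inhibitor gene Pik3ip1, the phosphatase genes Inpp5d and Inpp4b, and the kinase genes Akt1 and Akt2. They are 9 of the 9694 genes to which a splice junction could be assigned in these data, and 8 of the 9 reached 20 reads over both libraries, as did 7202 genes in all. Genes were included by name, and the set was chosen with earlier results of these data known. The value of a gene is the number of reads that crossed its exon-exon junctions, summed over all junctions that could be assigned to it. It is also given as reads per 1000000 junction reads of its library (RPM).

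The stimulated library came from spleen CD4+ T cells, taken from male mice of the C57BL/6JJcl strain, that were held for 4 h on plates coated with antibodies to CD3e and to CD28, both at 2 ug/ml, which engage the T cell receptor complex and a costimulatory receptor. The mock library came from CD4+ T cells handled the same way for 4 h without antibody. CD4+ cells of 4 spleens were pooled and enriched with magnetic beads, and the age of the mice is not given in the sources used here. There was 1 library per condition, so no difference below has a replicate check. The title of the series puts the question as which events come early in the activation of these cells.

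PI3K of class I phosphorylates a membrane lipid at the 3 position of its inositol ring and so makes PIP3, which draws Akt and other proteins to the membrane. In T cells the enzyme is recruited by the antigen receptor and by CD28, and p110delta is the catalytic subunit best known for this role. Lipid phosphatases such as SHIP1 and INPP4B remove phosphates from PIP3 or its products, and Akt phosphorylates FOXO factors and many metabolic enzymes.

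The stimulated library held 1341197 junction reads on 97395 junctions and the mock library 1147232 reads on 97850 junctions. The inserts averaged 199.014 bp in the stimulated and 211.79 bp in the mock library. The 9 genes took 1934 reads of the stimulated and 3229 reads of the mock library. All 10 CD4 T cell marker genes had reads in both libraries, with a summed 5261 RPM in the stimulated and 5731 in the mock library. Their ratios ran from 0.313 for Cd247 and 0.375 for Cd4, which had 285 stimulated and 650 mock reads, to 1.95 for Cd5. All 10 B cell markers also had reads in both, at a summed 132 RPM in the stimulated and 173 in the mock library. Erythroid markers summed to 133 RPM in stimulated and 69.7 in mock cells, over 4 named genes, and myeloid markers to 18.6 in stimulated and 31.4 in mock cells over 6 named genes. Natural killer cell markers summed to 43.2 RPM in stimulated and 39.2 in mock cells over 3 named genes, which went in different directions. Klrd1 had 20 stimulated and 38 mock reads, Eomes had 36 stimulated and 7 mock reads, and Klrk1 had 2 stimulated and 0 mock reads. Dendritic cell markers summed to 2.98 RPM in stimulated and 8.72 in mock cells. The CD8 gene Cd8b1 had 5 reads in the stimulated and 16 in the mock library. Of the myeloid genes, Lyz2 had 0 stimulated and 15 mock reads, while Csf1r had 7 stimulated and 6 mock reads and Cd68 had 11 stimulated and 10 mock reads. Of the dendritic cell genes, Flt3 had 0 stimulated and 8 mock reads, while Itgax and Zbtb46 each had 2 stimulated reads and 1 mock read. The part of the insert size and of these other cells in the results below was not tested, and in a bulk sample fewer cells of a type cannot be told apart from less RNA per cell.

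Of the 9 genes, 4 were lower after stimulation and none was higher. Pik3ip1, Pik3r5, Pik3cd and Pik3r1 fell by 3.53, 3.28, 1.96 and 1.62 on the log2 scale of RPM. Akt1, Inpp5d and Pik3ca had ratios between 0.813 and 1.07, Inpp4b had a ratio of 0.539, and Akt2 had too few reads to compare. A gene was counted as higher or lower when it had at least 20 reads over both libraries, a stimulated over mock ratio of at least 2 or at most 0.5, and an exact 95% interval of the ratio that excluded 1. These intervals come from the binomial share of stimulated reads. They hold the counting error alone, and separate reads need not be separate molecules. By the same rule 25.1% of the 7202 measured genes were lower and 17.1% were higher, 42.2% in either direction, or 1805 lower and 1232 higher genes. With TMM scaling, which sets typical genes equal, the split was 1410 lower and 1553 higher, and the same 4 genes of the set met the rule. The median log2 ratio was -1.26 over the 8 measured genes of the set and -0.21 over all measured genes. Relative to that median of all genes, the log2 ratio was -3.32 for Pik3ip1, -3.07 for Pik3r5, -1.75 for Pik3cd, -1.41 for Pik3r1, -0.68 for Inpp4b, -0.09 for Pik3ca, 0.29 for Akt1 and 0.31 for Inpp5d.

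**Figure D1:**
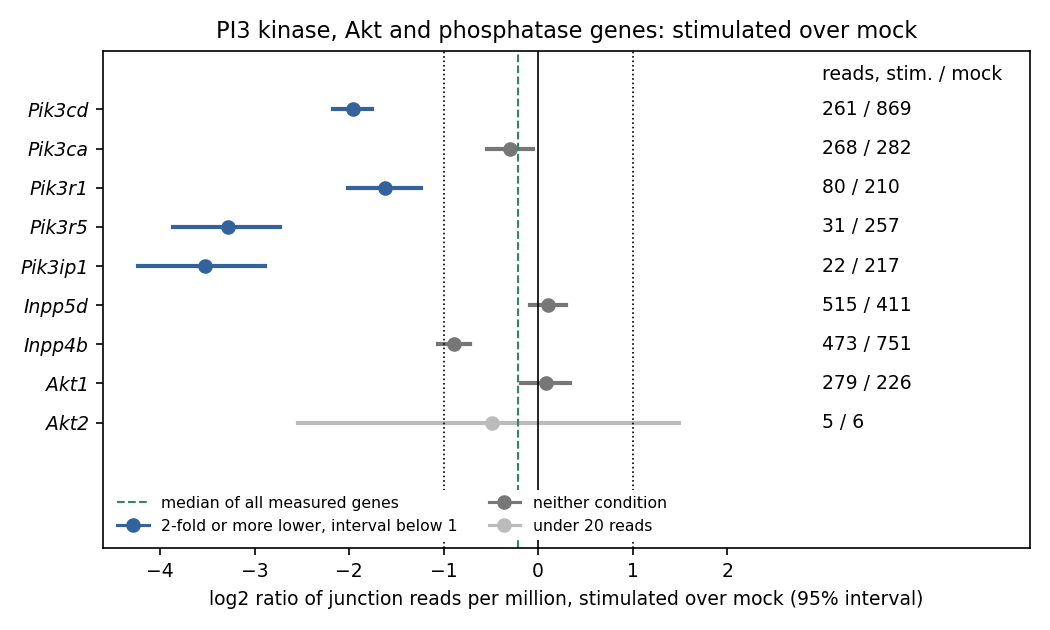
Log2 ratio of RPM, stimulated over mock library, for each of the 9 genes, with exact 95% intervals for counting error and the reads of both libraries at the right. Pik3ip1 and Pik3r5 lie furthest to the left, Akt1 and Inpp5d lie at 0.08 and 0.10, and the dashed line marks the median of all measured genes at -0.21.

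Pik3cd encodes p110delta, the class I catalytic subunit of leukocytes. It had 261 reads in the stimulated library, or 195 RPM, against 869 reads, or 757 RPM, in the mock library. That is 3.89-fold lower in stimulated cells (exact 95% interval 3.39 to 4.49). Its 29 assigned junctions lie between positions 149024887 and 149075611 of chromosome 4 (mm9, minus strand) and include all 24 introns of the coding transcript Pik3cd-202. Of the 16 junctions with at least 20 reads, all had a ratio below 1 and 15 met the rule for lower. Their ratios ran from 0.153 at intron 21, with 5 stimulated and 28 mock reads, to 0.428 at the first intron of Pik3cd-201, with 8 stimulated and 16 mock reads. The most-read junction, intron 16, had 19 reads in the stimulated and 91 in the mock library. Lower junctions were found along the whole transcript, from the 5' untranslated exons to the last intron. Intron 13 had 0 stimulated and 11 mock reads, 4.29-fold lower if 3 reads are put in place of 0 (exact 95% interval from 2.93-fold).

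Pik3cd transcripts differ at 2 pairs of acceptor sites that lie a few bases apart, and the sequences show how small the difference in the messenger RNA is. At the first pair the intron is chr4:149028245-149028333 in the shorter form and chr4:149028248-149028333 in the form with 3 more exon bases, both in mm9 on the minus strand. The lines give 30 exon bases on each side of the junction, 5' to 3', from the GENCODE M21 transcripts, and capitals mark the bases between the 2 acceptors.
Pik3cd-202 intron 18: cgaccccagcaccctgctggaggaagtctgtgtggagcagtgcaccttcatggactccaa
Pik3cd-201 intron 17: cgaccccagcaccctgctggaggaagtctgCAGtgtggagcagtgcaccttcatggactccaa
The form with the extra CAG had 0 of the 14 reads at this donor in the stimulated library (exact 95% interval 0 to 23.2%). With 3 reads put in place of 0 the share would be 21.4%. In the mock library this form had 15 of 65 reads, or 23.1% (13.5 to 35.2%). The intervals overlap, and the stimulated library had fewer than the 20 reads set as a minimum for such a comparison, so no difference in the use of this site was detectable at this depth. The annotated proteins of the transcripts have 1044 residues for Pik3cd-202 and 1045 for Pik3cd-201.
The other pair of acceptors, chr4:149029358-149029444 and chr4:149029367-149029444, differs by 9 bases, and the form with them in the exon had 1 of 5 stimulated and 1 of 15 mock reads.
Pik3cd-202 intron 14: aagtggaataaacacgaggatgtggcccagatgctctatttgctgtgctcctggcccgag
Pik3cd-204 intron 13: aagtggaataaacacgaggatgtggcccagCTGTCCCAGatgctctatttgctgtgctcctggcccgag
At the 5' end, 3 junctions led into 1 shared acceptor, with 8, 4 and 1 of 13 reads in the stimulated and 16, 13 and 1 of 30 reads in the mock library, for Pik3cd-201, Pik3cd-206 and Pik3cd-202. Both libraries held all 3 junctions, and the same one had the most reads.

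Pik3ca encodes p110alpha, the catalytic subunit present in most tissues. Its 19 assigned junctions lie at chr3:32335338-32361482 (mm9, plus strand). It had 268 reads in the stimulated library, or 200 RPM, against 282 reads, or 246 RPM, in the mock library. The ratio was 0.813 (exact 95% interval 0.685 to 0.964), short of the 2-fold set as a minimum. Of its 14 junctions with at least 20 reads, 10 had a ratio below 1 and 4 above 1, and 1 met the rule for lower: intron 14 of Pik3ca-201, with 10 stimulated and 24 mock reads. Introns 3, 13 and 16 had the highest ratio, 1.28 each, and the most-read junction, intron 18, had 34 stimulated and 24 mock reads. The 2 catalytic genes therefore differed in these libraries: the interval of Pik3cd ended at a ratio of 0.295 and that of Pik3ca began at 0.685. Intron 17, at chr3:32358955-32360401 (mm9, plus strand), had 12 reads in the stimulated and 0 in the mock library. With 3 reads put in place of 0 it was 3.42-fold higher (exact 95% interval from 2.38-fold). Its neighbours on both sides had reads in both libraries, with 12 stimulated and 8 mock reads at intron 16 and 34 stimulated and 24 mock reads at intron 18.

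Pik3r1 encodes p85alpha, the regulatory subunit that stabilises p110 and binds phosphorylated receptors and adaptors. Its 15 assigned junctions lie at chr13:102455025-102537931 (mm9, minus strand). It had 80 reads in the stimulated library, or 59.6 RPM, against 210 reads, or 183 RPM, in the mock library. That is 3.07-fold lower in stimulated cells (2.36 to 4.02). All 5 junctions with at least 20 reads met the rule for lower, with ratios from 0.252 at intron 1 (5 stimulated and 17 mock reads) to 0.389 at intron 13 (10 stimulated and 22 mock reads). Intron 7, the most-read junction, had 23 stimulated and 66 mock reads. It shares its acceptor with the first intron of the short transcript Pik3r1-204, whose junction had 1 read in each library. The long form therefore held 23 of 24 reads in stimulated cells, or 95.8% (78.9 to 99.9%), and 66 of 67 in mock cells, or 98.5% (92.0 to 99.96%). This was the only shared site of 12 in the 9 genes with at least 20 reads in each library, and its use did not meet the rule for a difference, which asked for 20 percentage points and intervals that do not overlap. Intron 6 had 0 stimulated and 15 mock reads, 5.85-fold lower if 3 reads are put in place of 0 (exact interval from 4.19-fold). Intron 4 had 5 stimulated and 0 mock reads. Intron 8 had 2 stimulated and 13 mock reads, and a junction of the same length shifted by 5 bases, which was not assigned to the gene, had 0 stimulated and 12 mock reads.

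Pik3r5 encodes p101, the regulatory partner of p110gamma, the class I enzyme that acts downstream of G protein-coupled receptors. Its junctions lie at chr11:68245765-68309610 (mm9, plus strand). It had 31 reads in the stimulated library, or 23.1 RPM, against 257 reads, or 224 RPM, in the mock library. That is 9.69-fold lower in stimulated cells (6.66 to 14.6). All 18 introns of the coding transcript Pik3r5-201 were seen in mock cells, and 8 of them had no read in stimulated cells. All 6 junctions with at least 20 reads were lower, with ratios from 0.0950 at intron 18, with 3 stimulated and 27 mock reads, to 0.252 at intron 4, with 5 stimulated and 17 mock reads. Among the junctions without stimulated reads, intron 2 had 19 mock reads and intron 3 had 10. With 3 reads put in place of 0 they were 7.40-fold and 3.90-fold lower (exact intervals from 5.46-fold and 2.62-fold). The most-read junction, intron 10 at chr11:68306454-68306577 (mm9, plus strand), had 5 stimulated and 34 mock reads. Its exon sequence is shown as that of the junction with the most reads, with the last base of one exon and the first of the next in capitals, from the same transcript set.
Pik3r5-201 intron 10: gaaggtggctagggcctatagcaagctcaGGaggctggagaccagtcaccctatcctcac

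Pik3ip1 encodes a transmembrane protein that binds p110 and inhibits PI3K. Its 8 assigned junctions lie on the same chromosome at chr11:3231008-3241525 (mm9, plus strand). It had 22 reads in the stimulated library, or 16.4 RPM, against 217 reads, or 189 RPM, in the mock library. That is 11.5-fold lower in stimulated cells (7.42 to 18.8), the lowest ratio of the 9 genes, though its interval overlaps that of Pik3r5. All 5 introns of Pik3ip1-201 were seen. Intron 1 had 5 stimulated and 56 mock reads, intron 4 had 8 stimulated and 66 mock reads, and intron 5 had 6 stimulated and 63 mock reads, with ratios from 0.0764 to 0.104. Intron 3 had 0 stimulated and 14 mock reads, 5.46-fold lower if 3 reads are put in place of 0 (exact interval from 3.88-fold). The ratios of the 3 well-covered junctions lay close together, so the fall does not rest on a single junction. The most-read one lies at chr11:3233416-3233507 (mm9, plus strand), and its exon sequence follows, with the same use of capitals.
Pik3ip1-201 intron 4: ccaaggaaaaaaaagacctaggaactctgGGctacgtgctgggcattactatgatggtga
The junctions of an alternative exon, in Pik3ip1-206, had 6 and 5 reads in mock cells and none in stimulated cells. With 6 stimulated reads at each of the sites they share with intron 5, a share like the 8.70% and 7.35% seen in mock cells could not be detected.

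Inpp5d encodes SHIP1, the blood cell phosphatase that removes the 5-phosphate of PIP3. Its 27 assigned junctions lie at chr1:89517207-89615895 (mm9, plus strand). It had 515 reads in the stimulated library, or 384 RPM, against 411 reads, or 358 RPM, in the mock library. The ratio was 1.07 (exact 95% interval 0.940 to 1.22). Its 14 junctions with at least 20 reads split evenly, 7 below and 7 above a ratio of 1. Intron 6, with 39 stimulated and 12 mock reads, was higher by 2.78-fold (1.43 to 5.83). Intron 8, with 23 stimulated and 6 mock reads, was higher by 3.28-fold (1.30 to 9.84). Intron 7 between them, with 12 stimulated and 22 mock reads, had a ratio of 0.467 (0.210 to 0.985) and met the rule for lower. The most-read junction, intron 21, had 47 stimulated and 44 mock reads. Neighbouring junctions of Inpp5d thus met the rule in opposite directions, on few reads and with intervals that hold counting error only. Whether splicing differed there was not tested. A pair of acceptors 3 bases apart gives proteins of 1191 and 1190 residues in the annotation. The junction with the longer exon lies at chr1:89562113-89564463 and the other at chr1:89562113-89564466 (mm9, plus strand), and capitals mark the bases between the acceptors.
Inpp5d-210 intron 3: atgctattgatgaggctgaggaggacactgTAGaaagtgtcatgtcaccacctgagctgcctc
Inpp5d-201 intron 3: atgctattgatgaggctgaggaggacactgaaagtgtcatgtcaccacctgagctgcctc
The form without these bases had 3 of 12 reads in stimulated cells (25.0%, 5.49 to 57.2%) and 1 of 9 in mock cells (11.1%, 0.281 to 48.2%), and both libraries held both forms.

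Inpp4b encodes the phosphatase that removes the 4-phosphate of PI(3,4)P2, the lipid that SHIP1 makes from PIP3. Its 24 assigned junctions lie at chr8:83866697-84646501 (mm9, plus strand). It had 473 reads in the stimulated library, or 353 RPM, against 751 reads, or 655 RPM, in the mock library. The ratio was 0.539, or 1.86-fold below mock (interval 1.65 to 2.09), so the interval excluded 1 but the ratio did not reach the 2-fold minimum. Of its 18 junctions with at least 20 reads, 16 had a ratio below 1, 2 had one above 1 and 6 met the rule for lower. The lowest was intron 10 of Inpp4b-212, with 18 stimulated and 67 mock reads and a ratio of 0.230. The highest was intron 8, with 29 stimulated and 17 mock reads and a ratio of 1.46. Intron 6, the most-read junction, had 60 stimulated and 134 mock reads, and taken alone it met the rule for lower, at a log2 ratio of -1.38. The interval of Inpp4b did not overlap that of Inpp5d, so these phosphatase genes differed beyond counting error in these libraries.

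Akt1 encodes a widely present Akt kinase. Its 13 assigned junctions lie at chr12:113892989-113912932 (mm9, minus strand). It had 279 reads in the stimulated library, or 208 RPM, against 226 reads, or 197 RPM, in the mock library. The ratio was 1.06 (exact 95% interval 0.883 to 1.26). Of its 11 junctions with at least 20 reads, 6 had a ratio below 1 and 5 above 1, and none met the rule in either direction. They ran from 0.489 at intron 11, with 8 stimulated and 14 mock reads, to 1.71 at intron 8, with 30 stimulated and 15 mock reads. The most-read junction, intron 7, had 60 stimulated and 49 mock reads.
Akt2 encodes a closely related kinase known for its role in insulin-stimulated glucose uptake. At chr7:28376899-28423080 (mm9, plus strand), 5 of the 13 introns of Akt2-205 were seen, with 5 reads in the stimulated library, or 3.73 RPM, against 6 reads, or 5.23 RPM, in the mock library. Its ratio of 0.713 had an interval of 0.172 to 2.80, so neither a 2-fold rise nor a 2-fold fall was detectable at this depth.

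Over all 9 genes, 158 junctions were assigned, of which 143 lie between coding exons. Of the 87 with at least 20 reads, 37 were lower, 2 were higher and 48 were neither. A further 7 had at least 10 reads in 1 library and 0 in the other, 6 of them without stimulated reads. The same shares over the junctions of all genes are not given here, so these counts have no background to be read against.

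**Figure D2:**
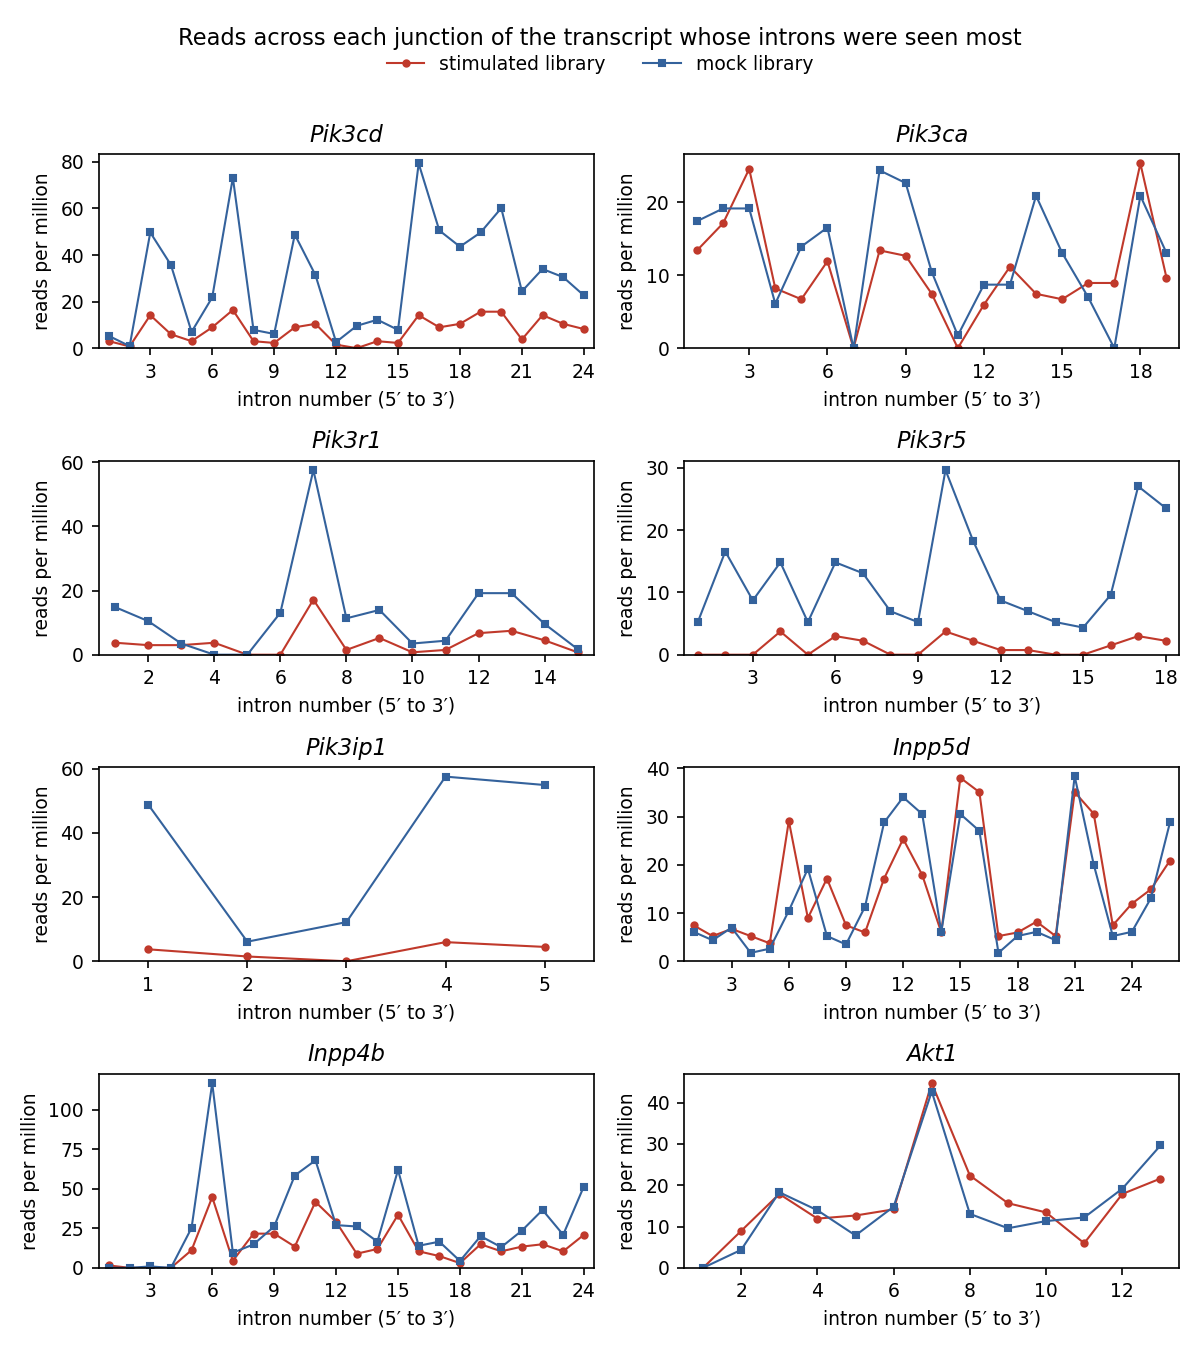
RPM across each intron, numbered 5' to 3' along the transcript with most introns seen, for the 8 genes with at least 20 reads (stimulated library in red circles, mock library in blue squares; an intron not seen is drawn at 0). In Pik3cd, Pik3r5 and Pik3ip1 the stimulated line lies on or below the mock line at every intron. In Pik3r1 it lies above the mock line only at intron 4, and the lines also cross in Pik3ca, Inpp5d, Inpp4b and Akt1.

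A junction is a single position, so the mean RPM per assigned junction gives a level per length. It depends on which junctions are counted, since alternative junctions enter the mean and unseen introns do not. In stimulated cells Akt1 was highest at 16.0 RPM per junction (exact Poisson 95% interval 14.2 to 17.99), next to Inpp4b at 14.7 and Inpp5d at 14.2, and these 3 intervals overlap. Pik3ca followed at 10.5, Pik3cd at 6.71 and Pik3r1 at 3.98, each with an interval apart from its neighbours. Pik3ip1 at 2.05, Pik3r5 at 1.28 and Akt2 at 0.746 came last, and in that order each overlaps the next. Averaged over all 13 introns of its transcript, Akt2 stood at 0.287 RPM in stimulated and 0.402 RPM in mock cells. In mock cells the order was another. Inpp4b at 27.3, Pik3cd at 26.1 and Pik3ip1 at 23.6 led with overlapping intervals. Averaged over all introns of the transcript, without alternative junctions, their order in mock cells turned, to 35.9 for Pik3ip1, 29.8 for Pik3cd and 27.2 for Inpp4b. Akt1 at 15.2, Inpp5d at 13.3, Pik3ca at 12.9, Pik3r5 at 12.4 and Pik3r1 at 12.2 formed a second group whose intervals overlap, and Akt2 was lowest at 1.05. Pik3cd, the leading class I catalytic gene in mock cells, thus stood below Pik3ca in stimulated cells, also over all introns, at 7.70 for Pik3cd and 10.5 for Pik3ca. These intervals hold counting error only, and levels differed far more between junctions of a gene. In mock cells single junctions ran from 0.872 to 79.3 RPM in Pik3cd and from 0 to 117 RPM in Inpp4b. For the ratios, the spread of the stimulated share between junctions of a gene was 2.02 times the counting variance over 4915 genes. The intervals of the ratios are therefore also narrower than the spread between junctions.

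**Figure D3:**
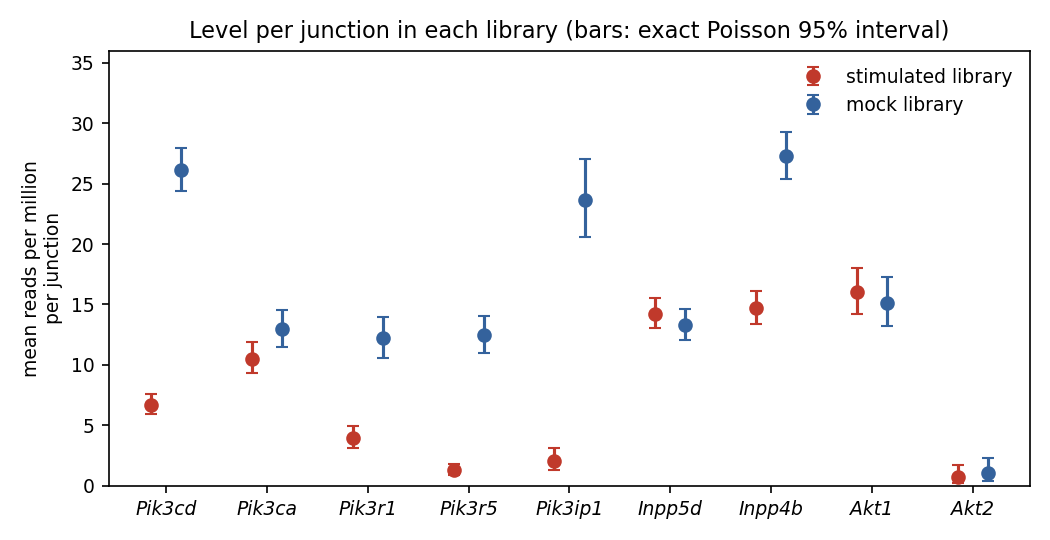
Mean RPM per junction for each gene, stimulated library in red left of the mock library in blue, with exact Poisson 95% intervals for counting error. Pik3ip1 stands at 2.05 in the stimulated and 23.6 in the mock library, while Akt1 stands at 16.0 in the stimulated and 15.2 in the mock library.

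To place the 9 genes in their pathway, 8 lists with 120 genes in all were compared between the libraries, 101 of them with at least 20 reads. The lists, like the set, were chosen with earlier results of these data known. Over all lists, 40 genes (39.6%) were lower and 6 (5.94%) were higher, beside 25.1% lower and 17.1% higher among all measured genes, with a median log2 ratio of -0.85, against -0.21 for all measured genes. Without the genes of the set the counts were 36 lower and 6 higher of 93, with a median of -0.78. With TMM scaling all lists together had 30 lower and 8 higher genes, beside 1410 lower and 1553 higher of all 7202 measured genes.

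The median log2 ratio was -2.24 among class I subunits and adaptors. Of the 8 measured genes, 6 (75%, beside 25.1% of all measured genes) were lower and none was higher. The 3 that are not in the set include Pik3cg, the gene of the p110gamma that Pik3r5 partners, with 8 stimulated and 39 mock reads (5.70-fold lower, 2.63 to 14.1). Pik3r2, which encodes p85beta, had 3 stimulated and 24 mock reads (9.35-fold lower, 2.84 to 48.5), and Pik3cb, which encodes p110beta, had 10 stimulated and 19 mock reads and met the rule in neither direction. Pik3ca thus had the highest ratio of this list and Pik3ip1 the lowest. Pik3ap1, an adaptor best known in B cells, had 15 stimulated and 4 mock reads, under the minimum of 20. Of class II and III kinases, 3 of 4 measured genes (75%, beside 25.1% of all measured genes) were lower, with a median of -1.27. Pik3c3, the class III kinase of autophagy and endosomes, had 120 stimulated and 237 mock reads (2.31-fold lower, 1.85 to 2.90), Pik3c2b had 11 stimulated and 25 mock reads (2.66-fold lower), and Pik3c2a had 64 stimulated and 107 mock reads, short of 2-fold.

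Of the phosphoinositide phosphatases, 7 of 23 measured genes (30.4%, beside 25.1% of all measured genes) were lower, none was higher and the median log2 ratio was -0.78. The lowest ratio was that of Inpp5k, a 5-phosphatase also called SKIP, with 54 stimulated and 286 mock reads (6.19-fold lower, 4.62 to 8.44). The highest was that of Mtmr2, a myotubularin, with 114 stimulated and 72 mock reads and a ratio of 1.35 (0.9996 to 1.85). Of the other phosphoinositide kinases, 2 of 9 (22.2%, near the share of all measured genes) were lower and 0 higher, and the median log2 ratio was -0.36. Pip4k2b had 24 stimulated and 99 mock reads (4.82-fold lower), whereas Pi4ka, with the most reads, had 666 stimulated and 613 mock reads, and Pip5k1a had 141 stimulated and 109 mock reads.

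Downstream of PIP3, the lists held both higher and lower genes. Of 14 measured Akt kinases and direct regulators, 3 (21.4%) were lower and 2 (14.3%) were higher, shares near those of all measured genes, with a median log2 ratio of -0.43. The higher ones were Trib3, a pseudokinase reported to bind Akt, with 69 stimulated and 7 mock reads (8.43-fold, 3.88 to 21.8), and its relative Trib1, with 20 stimulated and 6 mock reads (2.85-fold, 1.10 to 8.68). Ppp2ca, a catalytic subunit of the phosphatase PP2A, had the most reads, 487 stimulated and 283 mock, with a ratio of 1.47. Of 17 PIP3-binding effectors, 9 (52.9%) were lower and 2 were higher, with a median of -1.07. Rasa3, a GTPase-activating protein for Ras and Rap1, had 233 stimulated and 1906 mock reads (9.56-fold lower, 8.34 to 11.004). Dock2, the Rac exchange factor of lymphocyte migration, had 1978 stimulated and 4322 mock reads (2.55-fold lower, 2.42 to 2.70). Swap70, a PIP3-binding protein of cell migration, was higher with 154 stimulated and 61 mock reads (2.16-fold, 1.60 to 2.95), as was Rasa2, with 353 stimulated and 141 mock reads (2.14-fold).

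Of 15 measured Akt substrates, 5 (33.3%) were lower and 1 was higher, with a median of -0.64. Cdkn1b, the cell cycle inhibitor p27, had 40 stimulated and 186 mock reads (5.44-fold lower, 3.85 to 7.85). Pfkfb3, which makes the activator of phosphofructokinase, had 180 stimulated and 74 mock reads (2.08-fold higher, 1.58 to 2.77). Acly, which makes cytosolic acetyl-CoA, had the most reads, 932 stimulated and 451 mock, with a ratio of 1.77, short of 2-fold. Of 11 measured receptors and adaptors that recruit PI3K or SHIP, 5 (45.5%) were lower and 1 was higher, with a median of -0.98. The higher one was Icos, a costimulatory receptor that binds p85, with 125 stimulated and 40 mock reads (2.67-fold, 1.86 to 3.92). The scaffold gene Gab3 had 0 stimulated and 37 mock reads, a log2 ratio of -3.85 if 3 reads are put in place of 0. Cblb, a ubiquitin ligase that restrains T cell activation, had the most reads, 1148 stimulated and 797 mock, with a ratio of 1.23.

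**Figure D4:**
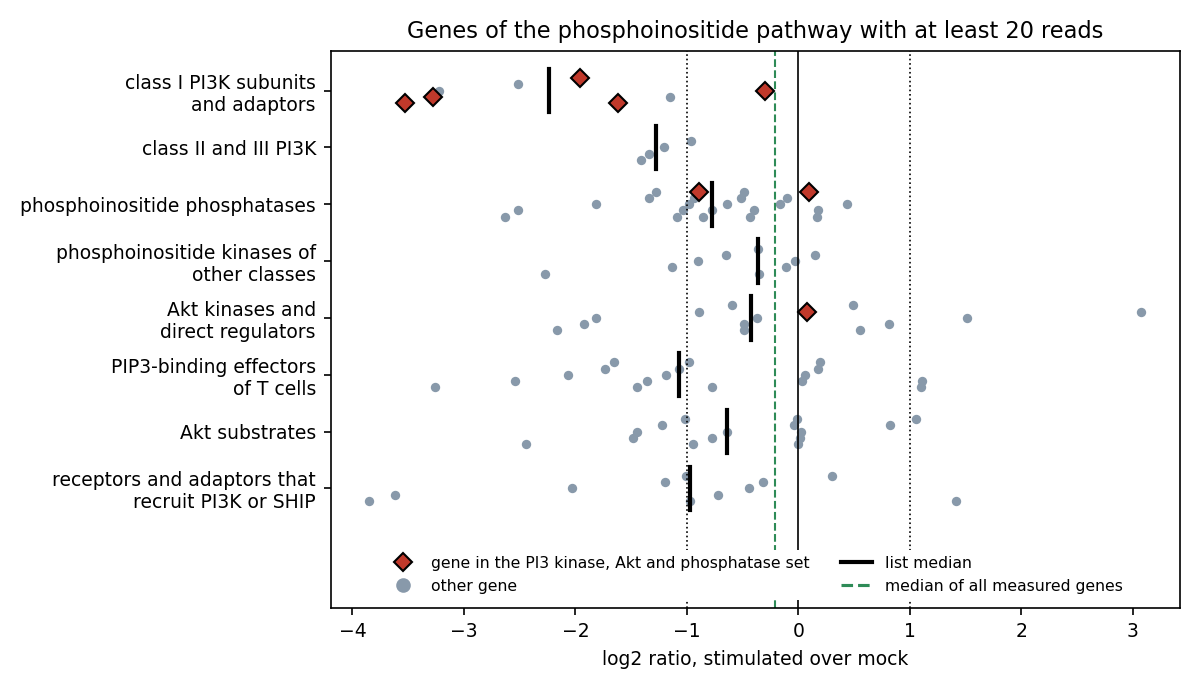
Log2 ratio, stimulated over mock library, of each gene with at least 20 reads in 8 lists of the phosphoinositide pathway (genes of the set as red diamonds, other genes as grey circles, black bars at the list medians, dashed line at the median of all measured genes, -0.21; a gene with 0 reads in a library is drawn with 3). The class I list has the lowest median, -2.24, and all 5 of its genes from the set lie left of the dashed line.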

How the data were processed

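Total RNA of 2 pooled CD4+ T cell samples was sequenced, and 1 BED file of splice junctions was deposited per sample. The submitters' processing notes name the build mm9, the splice-aware aligner TopHat and the assembler Cufflinks; for versions, settings and filters the sources used here give nothing. The score column, read as counts of reads across each junction, was used as deposited. A junction that was missed or shifted by alignment in 1 library loses its count there, and reads within an exon do not enter the values.

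The annotation at hand was GENCODE M21 on GRCm38, another build, and no coordinate was converted (1.98% of junction positions were equal in both). A junction was assigned to a gene when chromosome, strand and intron length matched an annotated intron and its distance to at least 1 other such junction matched the transcript. Of 124183 junctions, 95518 (76.9%) were assigned, to 9694 genes, and 238 that fitted more than 1 gene were left out. All junctions of a gene in the set showed 1 common shift between builds. Positions are mm9, from 1, and exon sequences are those of the GENCODE transcripts.

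Counts were summed per gene and divided by the library's junction reads, per 1000000. Ratios carry exact (Clopper-Pearson) 95% intervals. With 1 library per group no p-value was computed. The depth of 1341197 stimulated and 1147232 mock reads sets the width of the intervals. Where a library had 0 reads, 3 reads in that library were used as the floor. The naming and the rule were tested on simulated data.

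Named are all 9 genes; for each, the most-read junction, those of highest and lowest ratio with at least 20 reads, and junctions with at least 10 reads in 1 library only; and for each list the genes of highest ratio, lowest ratio and most reads. The other class I genes, Trib1, Rasa2, Pik3ap1 and further junctions were chosen after their values were seen. A gene that this rule names is not reported here. The genes of the set and the lists were chosen with earlier results of these data known. Alternatives changed the scaling (TMM from edgeR 4.0.16, median of ratios from DESeq2 1.42.0, both for factors only, or the total without the 20 most-read genes), the junctions counted, the thresholds, the interval and the naming. Python 3.11.15, scipy 1.17.1 and R 4.3.3 were used.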

Additional observations from a re-analysis of the deposited data

Results flagged for a closer look

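Inside Akt2, 1 junction that no annotated intron matched had 4 reads in the stimulated and 0 in the mock library. That is 2.98 RPM, beside the 2.61 RPM that 3 reads make in the mock library. The counting error of the 4 reads is not part of this comparison. Intron 4 of Pik3r1, with 5 stimulated and 0 mock reads, had an interval that reached down to a ratio of 0.784. The 4 reads therefore show no difference beyond counting error. The Akt2 junction lies at chr7:28405944-28413855 (mm9, plus strand), ends at an annotated acceptor and starts within intron 4 of Akt2-205. It had about as many stimulated reads as the 5 assigned junctions of Akt2 together, which had 5. In all, 52 unassigned junctions lay inside the 9 genes, with 33 stimulated and 53 mock reads.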

How the results depend on the processing

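With 1 library per condition, depth limits only the counting error, and the spread between mice or cultures is unknown. Pik3cd, Pik3r1, Pik3r5 and Pik3ip1 remained lower at the 2-fold rule under each other scaling, choice of junctions, interval and naming that gives a call, and no called value changed direction. At a fold of 4, Pik3cd and Pik3r1, at 3.89-fold and 3.07-fold, no longer pass. TMM scaling moved the median of all genes by 0.24, to 0.03, and median-of-ratios scaling by 0.23. By TMM 1553 genes were higher and 1410 lower (52.4% of those called were higher) and by median of ratios 51.8%, against 40.6% as reported (1232 higher and 1805 lower). Of the 96 alternative values of the 9 genes, 10 moved by more than their interval. By TMM, by median of ratios and with the most-read junction only, the log2 ratio of Pik3cd was -1.72, -1.74 and -2.49, that of Inpp5d 0.34, 0.33 and -0.13, and that of Inpp4b -0.65, -0.67 and -1.38, where it met the rule for lower. Pik3ca was at 0.28 with its most-read junction only. The change with scaling follows from its construction; for single junctions the cause was not tested. Akt2 had no value when junctions needed 10 reads, and with unassigned junctions inside the gene added, an alternative chosen after seeing the data, its log2 ratio was 0.23. At 4-fold, which is stricter by construction, 483 genes were higher and 633 lower, and of the pathway lists 1 was higher and 15 lower. With junctions seen in both libraries only, 3 pathway genes were higher, against 6, and the cause was not tested. Over all introns of the transcript, alternative junctions left out, the mean per junction was 7.70 RPM stimulated and 29.8 RPM mock for Pik3cd, 3.13 RPM stimulated and 35.9 RPM mock for Pik3ip1, and 0.287 RPM stimulated and 0.402 RPM mock for Akt2, and the order of the 3 highest genes in mock cells turned. No paired analysis was possible because each group has 1 library. Leaving out a replicate was not possible either.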
